A study of Bos taurus with 6 samples.

Results

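The genes that encode the transcription factor NRF2, its relatives, its binding partners and its classical targets were followed in bovine (Bos taurus) blastocysts. The 8 genes are NFE2L2, NFE2L1, KEAP1, NQO1, MAFG, MAFK, BACH1 and SRXN1. They were taken from the table of 36075 genes by their symbols, and each symbol matched 1 row. Melatonin (MT), a hormone with antioxidant activity, was present at 1e-07 mol/L for 22 h during in vitro maturation of the oocytes of the MT-treated group, and oocytes of the control group were matured without MT. Cumulus-oocyte complexes came from slaughterhouse ovaries, and all oocytes were fertilized and cultured in vitro. Each group had 3 libraries from 3 independent in vitro production runs, and each library was made from a pool of 3 blastocysts, so a value averages over embryos and over the cell types within them. The concentration, the hours and the pool size come from the study's methods, because the sample titles give the group and a replicate number only.

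NRF2, the product of NFE2L2, is a basic leucine zipper protein that switches on genes of glutathione, thioredoxin and NADPH metabolism when cells meet oxidants or electrophiles. In unstressed cells KEAP1 holds NRF2 and hands it to the ubiquitin ligase built on CUL3 and RBX1, so that the protein is degraded, and oxidation of KEAP1 cysteines stops this. NRF2 binds DNA as a dimer with a small MAF protein, and BACH1 is a heme-sensitive repressor that competes for the same dimer partners and sites. Much of this control acts on protein stability and location, which RNA levels do not report.

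The 6 libraries fell into 2 sharply different groups, and this sets the background for every value of the NRF2 genes. Values are TPM, a unit that scales the reads on a gene by gene length and library total, so levels of different genes can be compared. The listed values summed to 936783 to 937698 in control and to 912686 to 913707 in MT-treated libraries, so the columns did not share a common total. TPM keeps no read counts, and the depth behind a value is unknown. Between 8854 and 8953 genes were above 0 in the control libraries and between 14372 and 14408 in the MT-treated libraries. Across 11953 tested genes, those with at least 1 TPM in at least 3 libraries, Pearson's r of log2(TPM + 1) lay between 0.991 and 0.999 within a group and between 0.544 and 0.546 between the groups (correlations across genes, which are not replicates). Of the tested genes, 4037 had a listed value of 0 in all 3 control libraries and 360 (3.01%) in all 3 MT-treated libraries. Whether such a transcript was missing or escaped capture or counting cannot be told apart, and genes of broad use such as OGT and PRDX3 were among those listed at 0 in control. The sources name 2 library chemistries and 2 genome builds, and a difference in preparation or processing between the groups cannot be told apart from the treatment in any value below.

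The tissue label was checked against lists of marker genes. Trophectoderm markers, of the outer layer of the blastocyst, had a summed level of 12700 to 13082 TPM in control and 11700 to 12089 TPM in MT-treated libraries over 13 genes, most of it from KRT8 and KRT18. Transcription factors of this layer were less even, with CDX2 listed at 0 in all control libraries and TFAP2A at 31.51 to 38.92 TPM in control and 0.46 to 0.55 TPM after MT. GATA2, GATA3, TFAP2C and TEAD4 were higher after MT. Of the 13 markers 8 were higher (61.5%) and 4 lower (30.8%), near the 61.6% and 34.1% of all tested genes. The 10 markers of the inner cell mass summed to 304 to 307 and 344 to 347 TPM, with NANOG listed at 0 in all control libraries and FGF4 and TDGF1 listed at 0 in all 6. Of the 8 tested, 3 were higher and 3 lower (37.5% each), against 61.6% and 34.1% of all tested genes. SALL4, DPPA4 and LIN28B were the lower ones, and POU5F1, which made up most of the sum, overlapped between the groups. The 11 hypoblast markers summed to 469.8 to 474 and 507 to 514 TPM, most of it from APOA1. Of the 7 tested, 6 were higher after MT (85.7%, against 61.6% of all tested genes). From 0 TPM in every control library came 3 of these, PDGFRA and HNF4A among them (42.9%, against 33.8% of all tested genes). GATA4 and FOXA2 were listed at 0 in all 6 libraries. Of 11 markers of cumulus and granulosa cells 9 had group means below 1 TPM in both groups, and the list summed to 146 to 149 and 186 to 194 TPM, carried by PTGS2 and FSHR. Of 14 oocyte transcripts 12 had group means below 1 TPM in both groups, with sums of 45.6 to 49.3 and 37.0 to 39.2 TPM, and of 7 markers of blood and leukocytes 5 did, with sums of 32.8 to 35.03 and 150.3 to 170.7 TPM. PTPRC, CD68, CSF1R and CD14 were listed at 0 in all 6 libraries, so the blood list was carried by HBA and HBB. The part of these differences in the NRF2 genes was not tested.

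NFE2L2, NFE2L1 and KEAP1 were lower and NQO1 and SRXN1 were higher in MT-treated than in control blastocysts, although the direction of KEAP1 was reversed when libraries were centred on their median. MAFG did not pass the test, and MAFK and BACH1 were listed at 0 in all 6 libraries. Differences were tested on log2(TPM + 1) with limma, which borrows information on variance between genes, with p-values adjusted over all 11953 tested genes by the Benjamini-Hochberg method. Of the 6 NRF2 genes that entered the test, 3 were lower and 2 were higher. Both higher genes had entered through the MT-treated group alone and NFE2L1, a lower gene, through the control group alone. Over all tested genes 34.1% were lower and 61.6% were higher, together 95.7%, and the groups did not overlap for 96.1%, so a call as such does not set an NRF2 gene apart from the rest of the table. Of the 6925 tested genes with values above 0 throughout, where 4 of the NRF2 genes belong, 52.3% were lower and 40.6% higher. After median centring 25.4% of all tested genes were lower and 70.4% higher, and quantile normalization, which gives all libraries the same distribution, left 44.4% and 46.4%. For any 1 gene, exact permutation of 3 against 3 libraries has a smallest two-sided p of 0.1.

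**Figure D1:**
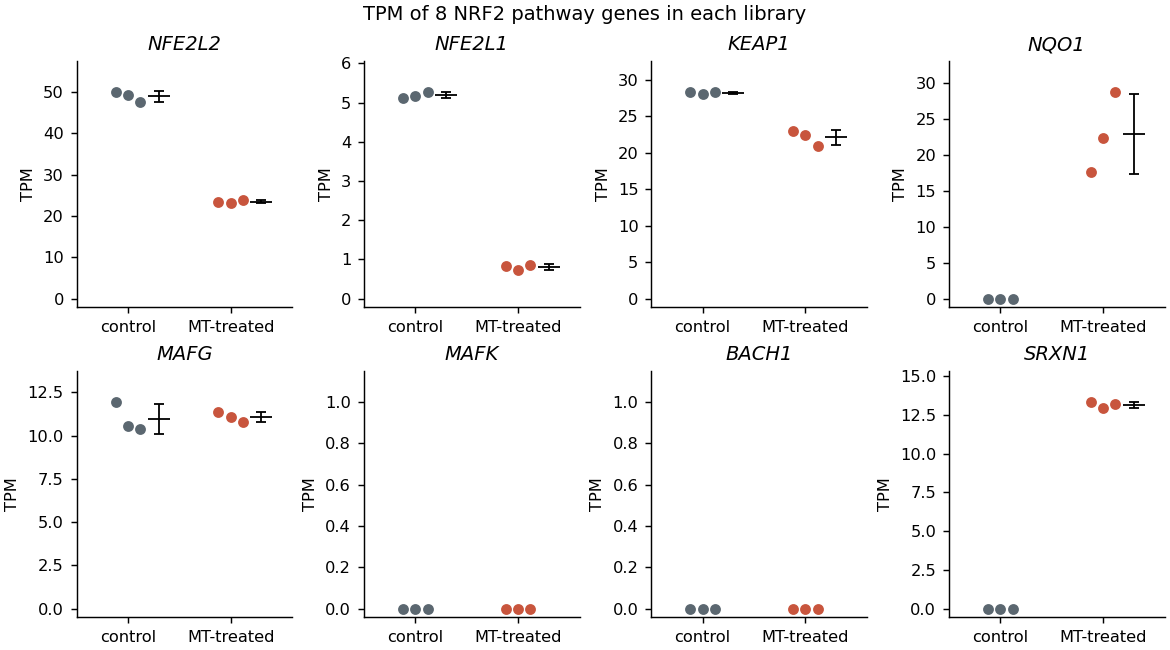
TPM (vertical axis, starting near 0 with a separate scale for each gene) of the 8 NRF2 pathway genes in the 3 control and 3 MT-treated libraries. Points are libraries, and bars are the mean and SD of the group, drawn only where no library is at 0. NFE2L2, NFE2L1 and KEAP1 were lower in every MT-treated library, NQO1 and SRXN1 were at or next to 0 in control, the ranges of MAFG overlapped, and MAFK and BACH1 lay at 0.

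NFE2L2 (ENSBTAG00000019255), which encodes NRF2 itself, was at 49.99, 49.30 and 47.56 TPM in control blastocysts, against 23.45, 23.13 and 23.75 TPM after MT. The groups did not overlap, and the spread within each was small. The mean went from 48.95 ± 1.25 to 23.4 ± 0.310 TPM (n = 3 each, SD), to 47.9% of the control level. On the log2 scale the difference was -1.03 (95% interval -1.10 to -0.96, standard error 0.03, limma adjusted p = 1.04e-07), and it was -0.55 (95% interval -0.63 to -0.48) after median centring and -0.90 after quantile normalization. In these pooled embryos, fewer cells that express a gene and less of its RNA per cell cannot be told apart.

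KEAP1 (ENSBTAG00000003543), the sensor that marks NRF2 for degradation, was at 28.34, 28.01 and 28.31 TPM in control blastocysts, against 22.96, 22.51 and 20.96 TPM after MT. Every MT-treated value lay under every control value, by a smaller step than for NFE2L2. The mean went from 28.2 ± 0.182 to 22.1 ± 1.05 TPM (SD, n = 3 each), or 78.5% of the control level. Its log2 fold change of -0.34 (limma adjusted p = 0.000189, standard error 0.04) became 0.14 (adjusted p = 0.0154 by limma) after median centring, which removed a shift of -0.48 between the groups.

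NFE2L1 (ENSBTAG00000013653) encodes a relative of NRF2 that is anchored in the endoplasmic reticulum and activates proteasome genes. It was at 5.12, 5.17 and 5.27 TPM in control blastocysts, against 0.84, 0.73 and 0.87 TPM after MT. This was the lowest of the detected NRF2 genes in MT-treated blastocysts, and it lay below the level of 1 TPM there. The control mean was 6.38 times the MT-treated mean. On the log2(TPM + 1) scale, which understates the change of a gene this low, the difference was -1.77. It passed the filter of the test through the control group alone, so its call follows in part from the filter, and no p-value is given. The log2 fold change was -1.29 after median centring, -2.88 after quantile normalization and -2.54 with a pseudocount of 0.1, so its size depended on these choices while its direction did not.

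Ratios of genes within a library, formed from the deposited TPM, were used to compare the regulators with each other. A single factor per library leaves such a ratio as it is, but quantile normalization does not. The ratio of NFE2L2 to KEAP1 was 1.76, 1.76 and 1.68 in control and 1.02, 1.03 and 1.13 after MT. NFE2L2 thus exceeded KEAP1 in all 6 libraries, and the ratio was lower in every MT-treated library (difference of -0.71 in the log2 ratio, exact permutation test, two-sided, p = 0.1, the smallest that 3 against 3 allow). The ratio of NFE2L2 to NFE2L1 was 9.76, 9.54 and 9.02 in control and 27.9, 31.7 and 27.3 in MT-treated libraries, higher in every MT-treated library (difference of 1.61 in the log2 ratio, exact permutation test, two-sided, p = 0.1). Of the ratios chosen in addition after their values had been seen, that of NFE2L2 to CUL3, the scaffold of the KEAP1 ligase, was 1.09, 1.10 and 1.10 in control and 0.663, 0.650 and 0.714 in MT-treated libraries. The ratio of KEAP1 to CUL3 was 0.616, 0.624 and 0.654 in control and 0.649, 0.632 and 0.630 in MT-treated libraries. The MT-treated values of this ratio lay within the control range (p = 0.6 by two-sided exact permutation), so that a difference larger than the spread between libraries was not detectable in the deposited TPM. After quantile normalization the log2 fold changes of KEAP1 and CUL3 were -0.34 and -0.09.

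**Figure D2:**
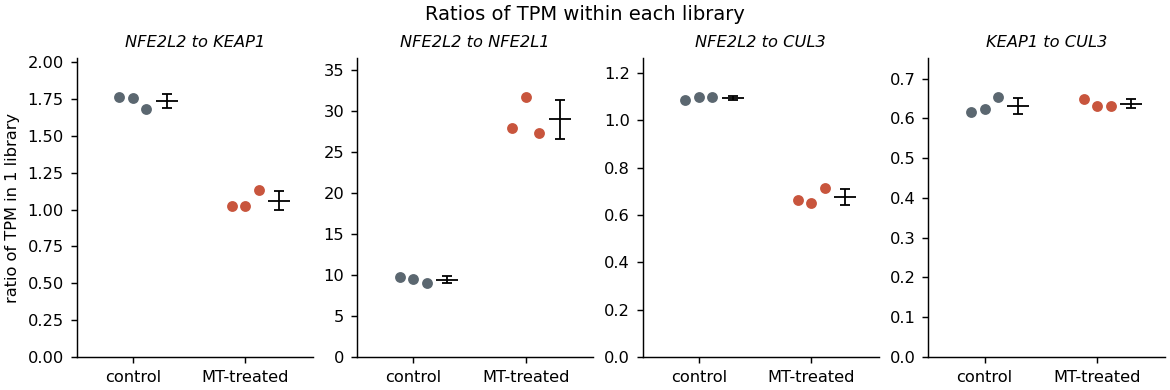
Ratio of the TPM of 2 genes within the same library (vertical axis, starting at 0, no unit) in 3 control and 3 MT-treated libraries. Points are libraries and bars are mean and SD. The ratio of NFE2L2 to KEAP1 lay between 1.68 and 1.76 in control and between 1.02 and 1.13 in MT-treated libraries, while the ranges of the ratio of KEAP1 to CUL3 overlapped.

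MAFG (ENSBTAG00000000040), a small MAF protein without a transactivation domain of its own, was at 11.94, 10.54 and 10.38 TPM in control and at 11.35, 11.09 and 10.79 TPM after MT. The groups overlapped, and the log2 fold change was 0.02 (95% interval -0.13 to 0.16, adjusted p = 0.784 by limma). This result depended on the scaling, with a log2 fold change of 0.50 (adjusted p = 0.000217 by limma) after median centring and -1.90 (adjusted p = 2.33e-06 by limma) after quantile normalization. The ratio of NFE2L2 to MAFG, also chosen after its values were seen, was 4.19, 4.68 and 4.58 in control and 2.07, 2.09 and 2.20 in MT-treated libraries, lower in every MT-treated library (exact permutation test, two-sided, p = 0.1). After quantile normalization NFE2L2 fell by less than MAFG, with log2 fold changes of -0.90 and -1.90, which turns this direction. MAFK (ENSBTAG00000019303), another small MAF protein, and BACH1 (ENSBTAG00000004139) were listed at 0 in all 6 libraries, as were 19787 of the 36075 genes. No ratio with either was formed.

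**Figure D3:**
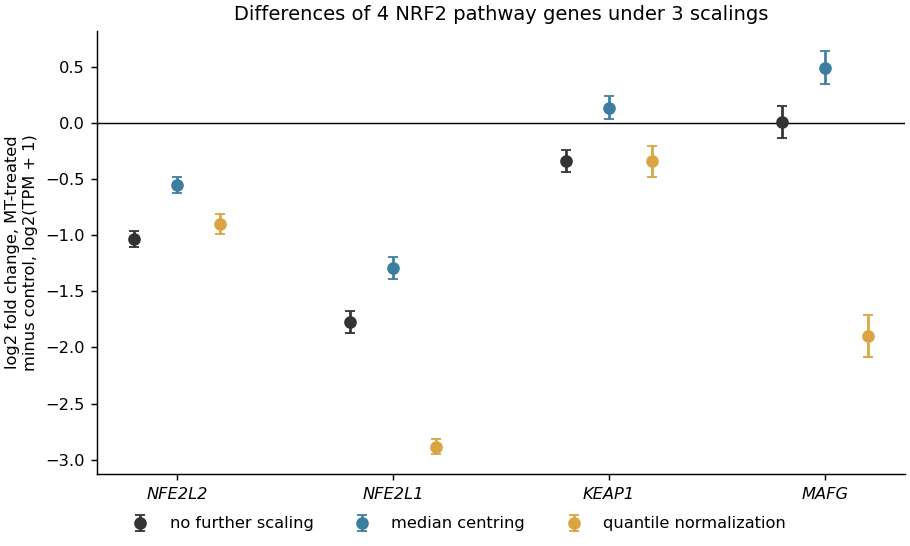
Log2 fold change on the log2(TPM + 1) scale (vertical axis, MT-treated minus control) of the 4 NRF2 genes above 0 in all 6 libraries, under 3 scalings. Points are limma estimates and bars are 95% intervals. NFE2L2 and NFE2L1 stayed below 0 under all 3 scalings, while KEAP1 was at 0.14 after median centring and MAFG ranged from -1.90 to 0.50.

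NQO1 and SRXN1, the target genes among the 8, were at or next to 0 in control blastocysts. NQO1 (ENSBTAG00000020632), a quinone reductase that is widely used as a readout of NRF2 activity, was listed at 0 throughout the control group and reached 17.58, 22.38 and 28.71 TPM after MT. SRXN1 (ENSBTAG00000059334), the enzyme that restores over-oxidized peroxiredoxins, was at 0, 0.01 and 0 TPM in control and at 13.31, 12.92 and 13.20 TPM after MT. Both passed the filter of the test through the MT-treated group alone, so their calls follow from the filter and the control values near 0, and no p-value is given. No fold change is given for either, because a group at 0 without counts sets no bound. Genes that were higher in MT-treated blastocysts from 0 in all control libraries made up 33.8% of the tested genes. At an MT-treated mean of 10 to 20 TPM, where SRXN1 lay, 45.4% of the tested genes were at 0 in all control libraries, and at 20 to 50 TPM, where NQO1 lay, 28.8% were.

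The MT-treated libraries were close to each other for SRXN1 and spread for NQO1, whose highest library had 1.63 times the level of the lowest. The coefficient of variation of NQO1 was 24.4%, against a median of 5.31% over the 4680 tested genes whose MT-treated mean was between 10 and 40 TPM. Of these genes 285 (6.09%) varied at least as much. This comparison was chosen after the values of NQO1 had been seen.

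In control blastocysts the levels ran from NFE2L2 through KEAP1 and MAFG to NFE2L1, with no overlap between neighbours in that order, and SRXN1, NQO1, MAFK and BACH1 lay at or next to 0. In MT-treated blastocysts NFE2L2, NQO1 and KEAP1 came first. The range of NQO1 overlapped those of NFE2L2 and KEAP1, and the lowest NFE2L2 value, 23.13 TPM, lay just above the highest KEAP1 value, 22.96 TPM. SRXN1, MAFG and NFE2L1 followed without overlap.

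The genes with a symbol nearest to NFE2L2 in level across the 6 libraries were CDKAL1, FARSA and USO1, with root mean square differences of 0.04, 0.05 and 0.07 in log2(TPM + 1). Those nearest to KEAP1 were SMIM15, TFB2M and TPI1, with 0.06, 0.06 and 0.07.

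Beyond the 8 genes, 89 genes of the pathway were collected in 8 lists, of which 85 were matched by symbol and 71 were tested. In MT-treated blastocysts 34 of the 71 were higher and 35 lower, 47.9% and 49.3% against the 61.6% and 34.1% of all tested genes. From 0 in the whole control group came 17 of the 34. Among the 52 tested genes of the lists that were above 0 in all 6 libraries, the median log2 fold change was -0.33, against -0.19 over the 6925 such genes of the table. Median centring gave 47 higher and 21 lower genes, against 70.4% and 25.4% of all tested genes, and quantile normalization 32 and 38, against 46.4% and 44.4%.

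**Figure D4:**
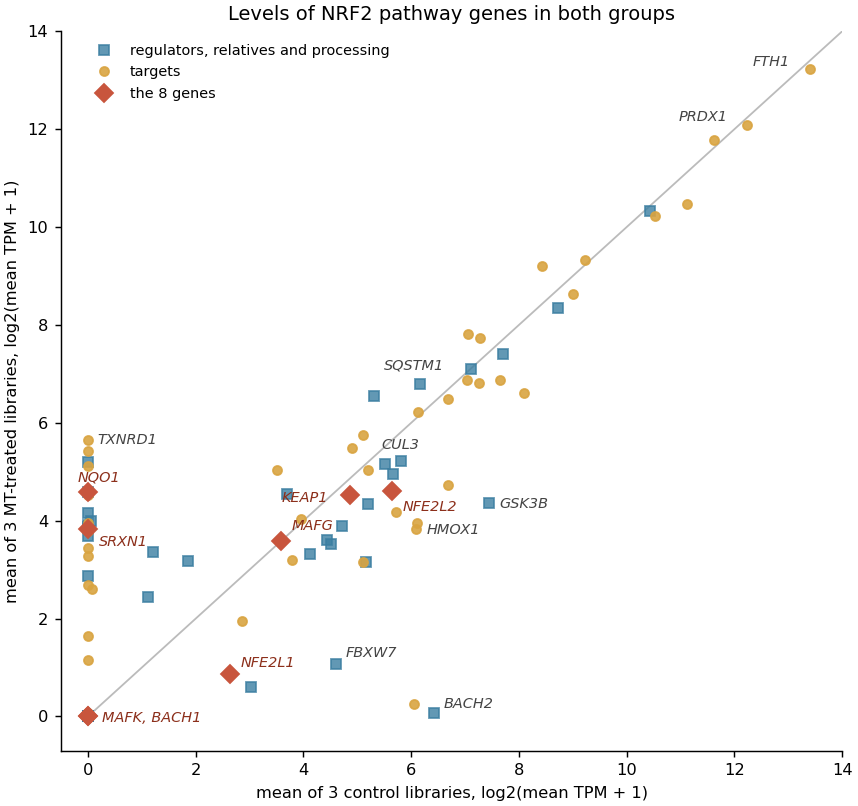
Mean level of the NRF2 pathway genes in MT-treated (vertical axis) against control blastocysts (horizontal axis), both as log2(mean TPM + 1) over 3 libraries. Diamonds are the 8 genes followed here, squares are regulators, relatives and processing genes, circles are targets, and the line marks equal levels. NQO1 and SRXN1 lie with other genes at 0 on the control axis, and BACH2 and FBXW7 lie far below the line.

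Of the tested genes of NRF2 turnover and partner proteins 11 of 18 were lower (61.1%, against 34.1% of all tested genes) and 7 were higher (38.9%, against 61.6%), 4 of them from 0 in the control group, as were 33.8% of all tested genes. After median centring 6 were lower (33.3%, against 25.4%) and 11 higher (61.1%, against 70.4%). The other parts of the KEAP1 ligase were lower but changed sign after median centring, with log2 fold changes of -0.36 and 0.12 for CUL3 and of -0.38 and 0.095 for RBX1. Their levels were close in proportion to that of KEAP1, CUL3 with 44.8 ± 1.38 against 34.7 ± 1.29 TPM and RBX1 with 422 ± 0.839 against 323.5 ± 9.54 TPM (SD, n = 3 each), which is 77.6% and 76.6% of the control level. GSK3B, a kinase that marks NRF2 for a second ligase, fell from 173 ± 1.80 to 19.7 ± 0.613 TPM (SD, n = 3 each, log2 fold change -3.07, adjusted p = 1.03e-09 by limma). The adaptors that read that mark were lower as well, BTRC with a log2 fold change of -0.70 and FBXW11 with -0.86, while CUL1, the scaffold of their ligase, was higher with 0.85 (adjusted p between 4.44e-07 and 8.96e-06 by limma).

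Among genes whose proteins bind KEAP1 in competition with NRF2, DPP3 had entered the test through the MT-treated group alone. PALB2 had entered it through the control group alone, so the directions of both follow from the filter. Of all tested genes, 33.8% were higher from 0 in all control libraries. DPP3 was listed at 0 in control and reached 34.69, 35.62 and 36.77 TPM after MT. SQSTM1, the autophagy receptor p62, rose from 70.9 ± 0.813 to 110.6 ± 1.25 TPM, and PALB2 fell from 7.17 ± 0.107 to 0.520 ± 0.0656 TPM (n = 3 each, SD). Of the related coactivators CREBBP and EP300, CREBBP had also entered the test through the MT-treated group alone. CREBBP was listed at 0 in control and reached 17.22, 25.17 and 26.19 TPM after MT, and EP300 fell from 34.8 ± 0.571 to 7.95 ± 0.281 TPM (SD, n = 3 each, limma adjusted p = 1.16e-08). RXRA, a nuclear receptor that can repress NRF2, reached 16.42, 18.53 and 15.89 TPM after MT, and USP11, a deubiquitinase, 12.03, 11.78 and 12.04 TPM, each from 0 in control.

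Of the relatives of NRF2, BACH and MAF proteins, 4 of 6 were tested, and 2 were higher and 2 lower, against 61.6% and 34.1% of all tested genes. BACH2, the repressor related to BACH1 and best known from lymphocytes, had 84.9, 86.9 and 83.9 TPM in control and 0, 0.15 and 0 TPM in MT-treated libraries. In control blastocysts it was thus above NFE2L2. NFE2, the erythroid member of the family, fell from 21.7 ± 1.03 to 10.4 ± 0.404 TPM (SD, n = 3 each, log2 fold change -0.99, adjusted p = 1.65e-06 by limma). Its log2 fold change was -0.51 after median centring and -2.70 after quantile normalization. The other small MAF gene, MAFF, was listed at 0 in control and reached 5.70, 7.26 and 5.84 TPM after MT. Summed over MAFF, MAFG and MAFK, the small MAF genes came to 11.94, 10.54 and 10.38 TPM in control and to 17.05, 18.35 and 16.63 TPM after MT, a difference carried by MAFF.

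Genes that release or degrade the NFE2L1 protein were higher in 5 and lower in 3 of 9 tested cases (55.6% and 33.3%, near the 61.6% and 34.1% of all tested genes), and in 4 and 5 after quantile normalization (44.4% and 55.6%, against 46.4% and 44.4%). SYVN1, the ubiquitin ligase of the endoplasmic reticulum, had 0, 0.05 and 0.05 TPM in control and 14.1, 15.2 and 15.8 TPM in MT-treated libraries, while its partner SEL1L fell from 16.5 ± 0.332 to 8.94 ± 0.618 TPM (SD, n = 3 each). VCP, the ATPase that extracts the protein from the membrane, overlapped between the groups at 132.57, 139.89 and 139.81 TPM in control and 130.88, 137.77 and 141.31 TPM after MT (log2 fold change -0.01, limma adjusted p = 0.834, but 0.47 after median centring and 0.26 after quantile normalization), and its cofactor NPLOC4 was lower with a log2 fold change of -0.83. NGLY1, which removes sugar chains from NFE2L1, was higher with a log2 fold change of 2.16 (adjusted p = 1.54e-07 by limma) but lower with -0.78 after quantile normalization. OGT, which attaches single sugars to proteins, was listed at 0 in control and reached 14.13, 14.04 and 13.88 TPM after MT. FBXW7, a ligase adaptor that directs NFE2L1 to degradation, fell from 23.4 ± 0.770 to 1.11 ± 0.0600 TPM (SD, n = 3 each, log2 fold change -3.53, adjusted p = 2.28e-09 by limma).

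Of 40 tested target genes of NRF2 in 5 lists, 20 were higher (against 61.6% of all tested genes) and 19 lower (47.5%, against 34.1%), and 10 of the 20 came from 0 in the whole control group. Median centring gave 28 and 10, near the background of 70.4% and 25.4%, and quantile normalization 20 and 19, against 46.4% and 44.4%. The background for each list of targets that follows is the same 61.6% higher and 34.1% lower, or 70.4% and 25.4% after median centring and 46.4% and 44.4% after quantile normalization, and the lists are small.

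**Figure D5:**
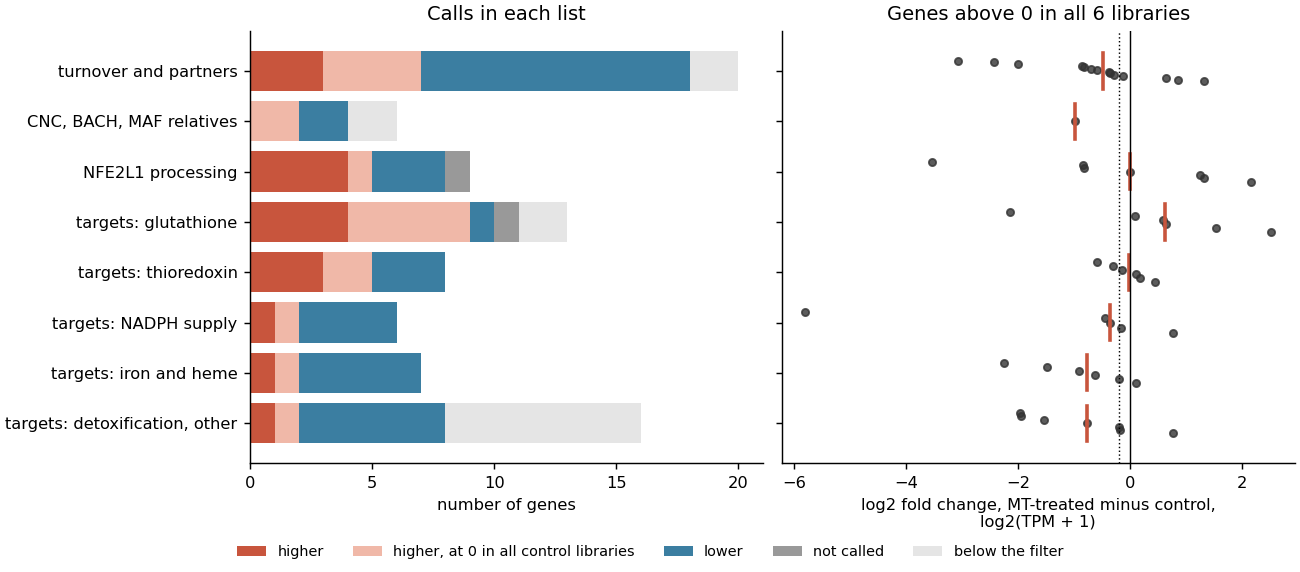
Left, number of genes (horizontal axis) of each pathway list that were higher, higher from 0 in all control libraries, lower, not called or below the filter in MT-treated against control blastocysts. Right, log2 fold change on the log2(TPM + 1) scale of list genes above 0 in all 6 libraries, with points for genes, a bar for the list median and a dotted line for the median of all such genes at -0.19. The glutathione list had 9 of 11 tested genes higher and a median of 0.62, and the iron and heme list had 5 of 7 lower and a median of -0.77.

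In the glutathione list 9 of 11 tested genes were higher and 1 was lower, against 61.6% and 34.1% of all tested genes, while quantile normalization gave 7 higher and 4 lower. Of the higher genes 5 came from 0 in all control libraries. SLC7A11, which imports cystine for glutathione synthesis, reached 23.06, 21.95 and 21.03 TPM after MT. GPX2, a glutathione peroxidase, reached 15.39, 14.37 and 13.55 TPM, and ABCC2, an exporter of conjugates, reached 28.93, 32.57 and 39.11 TPM. Of the subunits of glutamate-cysteine ligase, the rate-limiting enzyme, GCLM rose from 28.9 ± 2.16 to 44.1 ± 1.78 TPM (SD, n = 3 each, limma adjusted p = 0.000104). GCLC was listed at 0 in control, had 1.47, 1.23 and 0.98 TPM after MT and was below the filter of the test. GSTA4, a transferase that conjugates lipid aldehydes, was the lower gene, with 67.6 ± 1.90 against 14.4 ± 0.146 TPM (SD, n = 3 each, log2 fold change -2.15).

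In the thioredoxin and peroxiredoxin list 5 of 8 genes were higher and 3 lower (62.5% and 37.5%, near the background), whereas after median centring 7 were higher and 0 lower by limma, with SESN2 not called. TXNRD1, the cytosolic thioredoxin reductase, was listed at 0 in control and reached 40.33, 40.42 and 44.81 TPM after MT, and PRDX3, the mitochondrial peroxiredoxin, reached 49.02, 48.94 and 48.47 TPM, also from 0. The abundant genes went in both directions. PRDX2 rose from a mean of 3131 to 3522 TPM and PRDX6 from 599 to 641 TPM, with log2 fold changes of 0.17 and 0.10, and PRDX1 and TXN were lower. PRDX1, a substrate of sulfiredoxin, had 4832 ± 33.8 against 4350 ± 8.50 TPM and TXN had 1480 ± 18.8 against 1195 ± 11.8 TPM (SD, n = 3 each), with log2 fold changes of -0.15 and -0.31 that became 0.33 and 0.17 after median centring. PRDX4, the peroxiredoxin of the endoplasmic reticulum, rose from 155 ± 2.61 to 212 ± 5.34 TPM, and SESN2 went from 12.9 ± 0.664 to 8.16 ± 0.407 TPM (SD, n = 3 each), a call that was lost after median centring (adjusted p = 0.0714 by limma).

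In the list of NADPH supply 4 of 6 genes were lower (66.7%, against 34.1% of all tested genes) and 2 higher, whereas after median centring 1 was lower and 4 were higher. TKT, an enzyme of the pentose phosphate pathway, rose from 131 ± 1.70 to 224 ± 3.30 TPM (SD, n = 3 each, log2 fold change 0.76). IDH1 and TALDO1 had log2 fold changes of -0.45 and -0.36, which were 0.03 and 0.12 after median centring. ME1, malic enzyme, reached 6.19, 4.55 and 5.56 TPM after MT and was listed at 0 in control.

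In the iron and heme list 5 of 7 genes were lower (71.4%, against 34.1% of all tested genes) and 2 higher, and 4 were lower after median centring. HMOX1, heme oxygenase, a gene controlled by NRF2 and BACH1, fell from 67.1 ± 0.839 to 13.2 ± 0.404 TPM (SD, n = 3 each, log2 fold change -2.26, adjusted p = 3.96e-09 by limma), and BLVRA, the next enzyme of heme breakdown, fell from 272 ± 4.96 to 97.1 ± 1.65 TPM (SD, n = 3 each, log2 fold change -1.48). HMOX1 and NQO1, both used as reporters of NRF2, lay on opposite sides of the comparison. The direction of NQO1 follows from the filter and its control values of 0, so no contrast is drawn from it. Of all tested genes, 33.8% were likewise higher from 0 in all control libraries. SLC40A1, the iron exporter ferroportin, was lower with a log2 fold change of -0.91, and FECH, the last enzyme of heme synthesis, reached 12.69, 12.28 and 13.74 TPM after MT from 0 in control. BLVRB had 68.8 ± 1.97 against 73.9 ± 2.48 TPM (SD, n = 3 each, adjusted p = 0.0300 by limma), and this call was lost without control replicate 1, control replicate 3, MT-treated replicate 1 or MT-treated replicate 3 (adjusted p of 0.0888, 0.0558, 0.0931 and 0.0902 by limma) and with the replicate number as a block (adjusted p = 0.0650 by limma).

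Of the remaining targets, most of them detoxification enzymes, 8 of 16 matched genes were tested, and 6 were lower (75.0%, against 34.1% of all tested genes) and 2 higher, whereas after median centring 4 were lower and 4 higher. NQO2, the paralog of NQO1, was listed at 0 in all 6 libraries. UGDH, which makes the sugar donor for glucuronidation, fell from 33.14, 33.63 and 34.14 to 7.33, 8.42 and 8.05 TPM. ALDH7A1, an aldehyde dehydrogenase, fell from 102 ± 2.97 to 25.7 ± 1.17 TPM, and TXNIP, the inhibitor of thioredoxin, from 51.7 ± 1.18 to 17.1 ± 0.345 TPM (SD, n = 3 each). AKR1B1, an aldose reductase, rose from 346.72, 337.82 and 347.57 to 583.24, 575.74 and 595.58 TPM, and CBR3, a carbonyl reductase, reached 8.34, 8.75 and 9.20 TPM after MT from 0 in control.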

How the data were processed

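RNA of bovine blastocysts was measured in 6 libraries, 3 control and 3 MT-treated. According to the study's methods and the submitters' processing notes, the authors filtered reads with fastp and FastQC 0.11.9, aligned them with STAR 2.7.9a and counted them with featureCounts of Subread 1.6.3. The methods name the bovine build ARS-UCD1.3 and the notes ARS-UCD1.2, and no coordinates are given here. The methods name the Smart-seq2 protocol and the labels a TruSeq kit. The deposited values are TPM with 2 decimals, 1 column per library, made by the authors. How counts became TPM is not given in the sources used here. TPM keeps no counts, so the depth and the counting error are unknown. All 6 columns were matched to a sample by the labels.

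On the log2(TPM + 1) scale, linear models of limma 3.58.1 (R 4.3.3, eBayes, trend on mean level) were fitted to all genes that reached 1 TPM in at least 3 libraries, and p-values were Benjamini-Hochberg adjusted over those genes at 0.05. The fit was tested on simulated data. Ratios and summed levels were tested by exact permutation, two-sided, in Python 3.11.15. Pathway and marker lists were written from general knowledge. Named from each pathway list were the up to 3 highest and 3 lowest called log2 fold changes without overlap of the groups, and genes at 0 throughout a group and above 10 TPM on average in the other, and for NFE2L2 and KEAP1 the 3 genes nearest in level. CUL3, RBX1, BTRC, FBXW11, CUL1, SQSTM1, VCP, GCLM, GCLC, PRDX2, PRDX6 and NQO2 were named in addition after their values were seen. Values of a few genes chosen this way are not reported here. The members and lists were chosen with earlier results of these data known. The alternatives changed the pseudocount to 0.1, dropped the filter or raised it to 5 TPM, or used quantile normalization, median centring, genes above 0 in all 6 libraries, eBayes without the trend, a replicate block and each library left out.

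The methods state 3 runs per group, with the treatments of a run done side by side, but not that a replicate number marks the same run in both groups. Libraries were therefore treated as unpaired, and if the replicates of a group shared cultures, p-values would measure technical spread only.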

Additional observations from a re-analysis of the deposited data

How the results depend on the processing

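Most results kept their direction and their side of the threshold under the alternatives. After median centring 4 of the 6 tested NRF2 genes were higher in place of 2 (66.7%, near the 70.4% of all tested genes). KEAP1 then had a log2 fold change of 0.14 and MAFG 0.50. Of the 71 tested pathway genes 21 were lower in place of 35 (29.6%, against 25.4% of all tested genes). TXN, PRDX1, IDH1 and TALDO1 changed sign to 0.17, 0.33, 0.029 and 0.12, CUL3 and RBX1 to 0.12 and 0.095, and VCP to 0.47. The call of SESN2 was lost (adjusted p = 0.0714 by limma). After quantile normalization MAFG had -1.90, NGLY1 -0.78 and VCP 0.26. When only genes above 0 in all 6 libraries were tested, 0 of the 4 remaining NRF2 genes were higher by limma (also 0 at an unadjusted p under 0.05), because that restriction removes NQO1 and SRXN1, and 16 pathway genes and 2814 genes in all were higher in place of 34 and 7367. Leaving out 1 library at a time moved the log2 fold change of MAFG between -0.017 and 0.075 and that of VCP between -0.034 and 0.022. The log2 difference in the ratio of KEAP1 to CUL3 then lay between -0.0029 and 0.041. Each fit left 2 NRF2 genes higher and 3 lower, a count that could hardly change. NQO1, SRXN1 and NFE2L1 had passed the filter through a single group, and 95.7% of all tested genes were called. The call of BLVRB was lost in 4 of the 6 fits without 1 library (adjusted p of 0.0558 to 0.0931 by limma). NFE2L2 then lay between -1.05 and -1.02 and NFE2L1 between -1.79 and -1.74, while median centring moved them to -0.55 and -1.29. Same-numbered libraries of the groups did not deviate together, with correlations across tested genes of -0.01, -0.0007 and 0.06, and 1 of 3 pairs was the best match. The study treated its groups side by side in each run, so control and MT-treated libraries may share runs, but neither the labels nor these correlations tie a number to a run. With the replicate number as a block, 2 NRF2 genes were higher and 3 lower, with the same limit on this count. In all, 7379 genes were higher and 4082 lower. KEAP1 had an adjusted p of 0.00120 by limma, and BLVRB was the named gene whose call was lost. Depth limits the reading of genes listed at 0, since without counts no upper limit can be given for them.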

Other observations

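The place of NFE2L2 and KEAP1 among all genes above 0 in a library went the other way from their TPM, while that of NFE2L1 fell with its TPM. The MT-treated libraries held more genes above 0, and the part of this in the places was not tested. NFE2L2 exceeded 69.1%, 68.9% and 67.4% of the genes above 0 in control and 70.3%, 69.5% and 70.5% after MT. KEAP1 exceeded 55.8%, 55.6% and 55.1% in control and 69.7%, 68.9% and 67.8% in MT-treated libraries, and MAFG 42.4%, 40.8% and 39.99% and 51.5%, 50.9% and 50.2%. NFE2L1 went from 33.8%, 33.7% and 33.2% to 19.5%, 18.6% and 19.8%. By this measure NFE2L2, KEAP1 and MAFG stood higher in every MT-treated library than in any control library, NFE2L2 by the smallest step, and NFE2L1 stood lower. The percentages refer to lists of 8854 to 8953 genes in control and 14372 to 14408 after MT. These percentages describe the libraries and were not tested.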
